A study of Mus musculus with 9 samples.

Results

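Barcodes of mouse liver that carried much mCherry RNA were compared with barcodes of the same liver that carried little. The livers came from 3 mice injected with AAVrh.10mCherry, an adeno-associated virus vector of serotype rh.10 that carries the gene of the red fluorescent protein mCherry. A barcode stands for one droplet, and qualified with at least 1000 unique molecular identifiers (UMIs, each taken as 1 captured transcript) and at least 10 UMIs of Alb, the albumin gene of hepatocytes. Of the 48000 barcodes deposited for the 9 livers of the series, 10545 met both limits in these 3 livers, 3923 of 4000 in mouse 3, 1170 of 5600 in mouse 6 and 5452 of 6400 in mouse 9. Within each mouse the barcodes were ordered by mCherry UMIs over all UMIs. The 25% at the bottom (mCherry-low) and the 25% at the top (mCherry-high) held 980 barcodes a side in mouse 3, 292 in mouse 6 and 1363 in mouse 9. The sides were thus chosen by measured values: mCherry, Alb and total UMIs. All 9 mice of the series were male C57BL/6 mice aged 8 weeks. By intravenous injection, 3 of them had received PBS, 3 the vector AAVrh.10Null and 3 the vector AAVrh.10mCherry. Liver cells were isolated and captured by Drop-seq, which pairs single cells with barcoded beads in droplets. Dose, time after injection, the promoter driving mCherry and the content of the Null vector are not stated in the labels.

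After entry by its receptors, an AAV particle travels through endosomes and the Golgi to the nucleus, uncoats, and its single-stranded DNA becomes double-stranded before it is transcribed. In liver the hepatocyte is the main cell that AAV vectors of this kind reach, and cells of one liver can differ in how many genomes they take up and transcribe. Hepatocytes also differ by place in the lobule: those around the central vein carry out drug metabolism and make glutamine, and those around the portal vein make urea and glucose. A dissociated liver further holds sinusoidal endothelial cells, Kupffer cells (its resident macrophages), T and NK cells, stellate cells and cholangiocytes of the bile ducts.

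mCherry set the 2 sides, so its levels describe them and were not tested. In mouse 3, mCherry was 4541 CPM (counts-per-million, UMIs of the gene scaled to all UMIs of the sum; 95% exact Poisson interval 4434 to 4650) in the mCherry-low sum and 11840 CPM (11670 to 12020) in the mCherry-high sum. In mouse 6 the sums were at 1411 CPM (1313 to 1514) and 11040 CPM (10720 to 11370). In mouse 9 they were at 387.9 CPM (360.5 to 416.8) and 3588 CPM (3503 to 3674). The mCherry-low side of mouse 3 was thus above the mCherry-high side of mouse 9, and "low" and "high" have meaning only within a mouse. The median barcode held 7 mCherry UMIs on the low side and 16 on the high side in mouse 3, 2 and 12 in mouse 6, and 1 and 4 in mouse 9. No mCherry UMI was found in 2, 30 and 657 qualifying barcodes of mice 3, 6 and 9, all of them on the low side. The limits fell among tightly spaced barcodes: the last barcode inside the low side and the first outside it were at 6061 and 6061 CPM in mouse 3, 2712 and 2727 CPM in mouse 6, and 852.5 and 853.2 CPM in mouse 9. At the high side's limit the last barcode below and the first inside were at 9804 and 9804 CPM in mouse 3, 7412 and 7428 CPM in mouse 6, and 2586 and 2586 CPM in mouse 9. Intervals on sums cover counting error only.

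**Figure D1:**
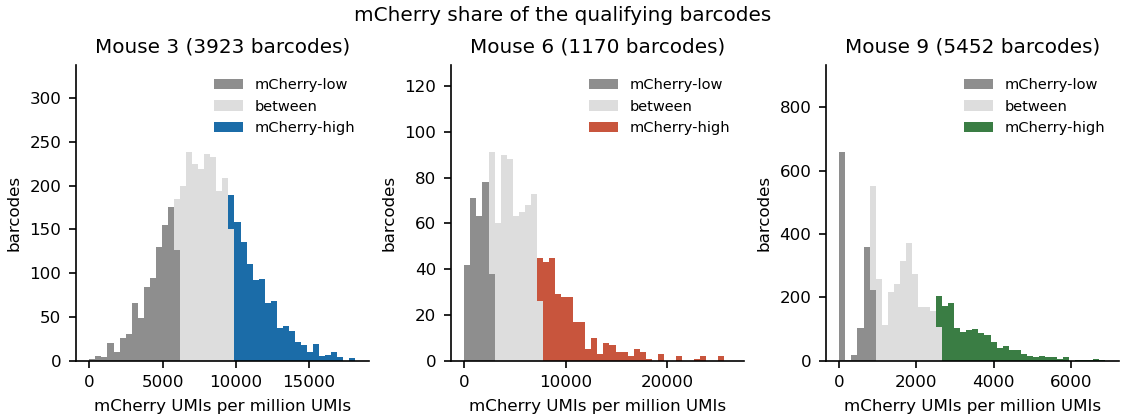
mCherry level in CPM (x axis) against the number of qualifying barcodes (y axis, stacked) in each AAVrh.10mCherry mouse, with the mCherry-low side in dark grey, the barcodes between in light grey and the mCherry-high side in colour. The share forms 1 broad hump in mouse 3, a wide slope in mouse 6, and in mouse 9, where barcodes hold few mCherry UMIs each, separate peaks that include 657 barcodes at 0. The highest barcodes, up to 21410, 28730 and 15150 CPM in mice 3, 6 and 9, lie beyond the axis.

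The spread of mCherry between barcodes was set beside the error of counting, over barcodes with few markers of other cell types (at most 2 such UMIs, defined below). There the variance of mCherry UMIs was 1.504 times that of a Poisson draw at each barcode's depth in mouse 3, 4.808 times in mouse 6 and 1.298 times in mouse 9. Spread beyond counting, as a coefficient of variation, came to 23.3%, 69.65% and 38.9% in mice 3, 6 and 9. Counting alone gave 28.88%, 34.88% and 62.71%. In mice 3 and 9 the counting part was the larger, and in mouse 6 the part beyond counting. For comparison, the spread beyond counting in mice 3, 6 and 9 was, for Cyp2e1, a pericentral cytochrome P450, 29.49%, 80.49% and 38.45%, and for Ttr, which encodes transthyretin, 17.83%, 42.35% and 21.38%. Malat1, a nuclear RNA described below, spread far more, by 261.6%, 134.3% and 172.1%.

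In livers without the mCherry gene, qualifying barcodes held 273 mCherry UMIs in mouse 1 (PBS; 24.33 CPM, in 4.581% of 5195 barcodes) and 53 in mouse 5 (AAVrh.10Null; 22.14 CPM, in 2.638% of 1933 barcodes). In the other 4 control livers 0 UMIs were counted. The upper end of the 95% exact Poisson interval was 3.629 CPM in mouse 2, 1.081 CPM in mouse 4, 46.75 CPM in mouse 7 and 1.661 CPM in mouse 8. The levels in mice 1 and 5 lay below the mCherry-low sums of all 3 AAVrh.10mCherry mice.

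The 2 sides also differed in what the barcodes held. Median depth was 1390 and 1335 UMIs per barcode on the low and high side of mouse 3, 1414.5 and 1203.5 in mouse 6, and 1291 and 1271 in mouse 9. In mouse 6, with 292 barcodes a side, the low side held 543653 and the high side 403547 UMIs, so its low side was the deeper. Transcripts encoded in mitochondria made up 6.837% of UMIs on the low and 5.832% on the high side of mouse 3, 31.25% and 10.07% in mouse 6, and 10.71% and 9.395% in mouse 9. Malat1, a long RNA that stays in the nucleus, was at 8190 and 3368 CPM, 16790 and 8081 CPM, and 6167 and 5837 CPM in mice 3, 6 and 9. The mCherry share is taken over all UMIs, so a barcode rich in any other RNA has a lower share by arithmetic. Barcode sequences were shared between libraries only 2 (mice 3 and 6), 2 (mice 3 and 9) and 3 (mice 6 and 9) times among qualifying barcodes. Doublets were not called.

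The name "hepatocyte barcodes" held only in part. Every one of the 10 hepatocyte markers (Alb, Ttr, Apoa1 and others) was present on both sides of each mouse, with a summed level of 146800 and 159400 CPM on the low and high side of mouse 3, 92180 and 112700 CPM in mouse 6, and 134700 and 136200 CPM in mouse 9. Alb was used to choose the barcodes, so its presence was set in advance. Alb alone was at 36220 and 34490 CPM in mouse 3, 45020 and 35890 CPM in mouse 6, and 42630 and 39460 CPM in mouse 9. The summed markers of 7 other cell types stood at 2282 CPM on the low and 600.9 CPM on the high side of mouse 3, at 2544 and 639.3 CPM in mouse 6, and at 1414 and 710.6 CPM in mouse 9. Barcodes with at least 10 UMIs of these markers numbered 64 on the low and 4 on the high side of mouse 3, 29 and 4 in mouse 6, and 56 and 13 in mouse 9. Barcodes with more than 2 of them were 14.8% of the low and 6.633% of the high side in mouse 3, 18.49% and 6.164% in mouse 6, and 11.15% and 7.557% in mouse 9.

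By cell type, the summed sinusoidal endothelial markers were at 690.6 and 253.4 CPM on the low and high side of mouse 3, 1245 and 323.2 CPM in mouse 6, and 673.7 and 398.4 CPM in mouse 9. Kupffer and macrophage markers were at 762.9 and 114.2 CPM, 200.8 and 82.69 CPM, and 261.1 and 53.08 CPM in the same order of mice. T and NK cell markers were at 231.5 and 9.279 CPM, 191.6 and 5.011 CPM, and 68.41 and 40.47 CPM. For these 3 types each mouse was lower on its mCherry-high side. Stellate markers were at 288.4 and 137 CPM, 372.1 and 132.8 CPM, and 295.1 and 132.4 CPM, and cholangiocyte markers at 266.3 and 84.94 CPM, 508.4 and 92.71 CPM, and 92.96 and 72 CPM. These too were lower on the mCherry-high side of each mouse, by little for cholangiocytes in mouse 9. B and plasma cell markers, at most 16.73 CPM, were higher on the high side in mouse 6 (3.684 and 7.517 CPM), and neutrophil and monocyte markers in mouse 9 (10.97 and 12.09 CPM).

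**Figure D2:**
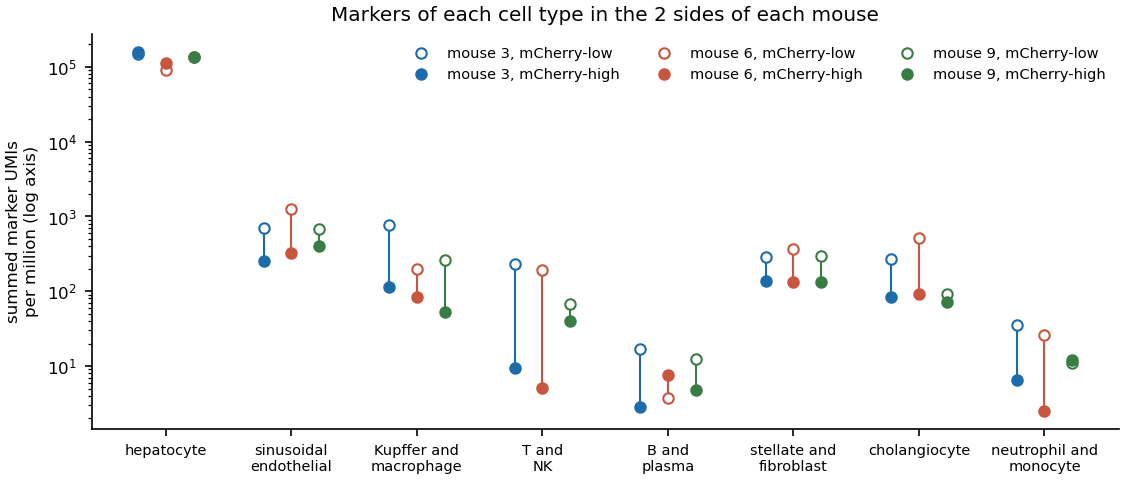
Summed level of each cell type's marker list in CPM (y axis, log scale) on the mCherry-low side (open points) and the mCherry-high side (filled points) of mice 3, 6 and 9. Hepatocyte markers lie near the same height on both sides, while endothelial markers lie between 673.7 and 1245 on the low sides and between 253.4 and 398.4 on the high sides. The hepatocyte list includes Alb, which was used to choose the barcodes.

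With UMIs summed per side, mCherry left out and each mouse as a pair, 80 of 7873 tested genes were lower and 0 higher on the mCherry-high side at an adjusted p under 0.05 (edgeR quasi-likelihood test, Benjamini-Hochberg adjustment; 1.02% of genes lower and 0% higher). Of the 80 genes 26 stood in the marker lists of cell types other than hepatocytes. The median log2 change of the 80 was -2.14 against -0.02 over all tested genes. All 80 changed by at least 2-fold, and 76 had the same sign in all 3 mice. At an unadjusted p under 0.05, 269 genes were higher and 562 lower. The count rested on single mice: it was 2 without mouse 3, 68 without mouse 6 and 38 without mouse 9, and it was 0 when the pairing by mouse was dropped.

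Of 18 sinusoidal endothelial markers, all tested, 12 were called lower and all 18 lay below 0, with a median log2 change of -1.82. A marker passes the low-count filter mostly through the low side, where it is high, so these counts describe the change and do not support it. Ptprb, an endothelial receptor tyrosine phosphatase, was at 76.29 and 14.99 CPM on the low and high side of mouse 3, 237.6 and 40.09 CPM in mouse 6, and 74.68 and 29.43 CPM in mouse 9. The sides did not overlap, and the log2 change was -2.03 ± 0.25 (SE, n = 3 mice; edgeR adjusted p = 0.000584). Fcgr2b, the inhibitory Fc receptor of sinusoidal endothelium, fell by 2.25 on the log2 scale (41.49 and 4.283 CPM, 103.2 and 10.02 CPM, and 28.2 and 13.14 CPM). Mrc1, the mannose receptor that endothelial cells and macrophages use to clear glycoproteins, fell by 2.13, and Aqp1, a water channel, fell by 1.95. Gimap4, a GTPase of lymphocytes and endothelium, fell by 2.27.

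Of 16 Kupffer and macrophage markers 10 could be tested, and 8 were called lower, with a median of -2.20. Lyz2, the lysozyme of macrophages, was at 177.3 and 23.55 CPM on the low and high side of mouse 3, 132.6 and 15.03 CPM in mouse 6, and 63.19 and 6.832 CPM in mouse 9. No high side reached a low side, and the log2 change was -3.05 ± 0.22 (edgeR adjusted p = 3.53e-06). Clec4f, a lectin specific to Kupffer cells, was at 87 and 12.85 CPM in mouse 3 and 25.59 and 6.832 CPM in mouse 9, and it was carried in mouse 6 by only 4 and 2 UMIs (7.368 and 5.011 CPM). Its log2 change was -2.27 ± 0.30. Antigen presentation genes were called as well: H2-Ab1, an MHC class II chain (-3.05), Cd74, its invariant chain (-2.74; chosen after its values were seen), and Ctss, the cathepsin that trims the invariant chain (-2.85). In mouse 6 these 3 genes had only 2 to 5 UMIs a side. C1qa and C1qb, subunits of the first complement component made by macrophages, had log2 changes of -2.23 and -2.17 and were called, although C1qb was higher on the high side of mouse 6 (2 and 6 UMIs).

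Of 15 T and NK markers 3 could be tested and 2 were called. Ccl5, a chemokine of T and NK cells, was at 75.62 and 2.855 CPM in mouse 3, at 75.52 CPM and 0 UMIs (3 UMIs would be 7.517 CPM) in mouse 6, and at 24.54 and 13.14 CPM in mouse 9. Its log2 change was -2.68 ± 0.51. Among cholangiocyte markers 1 of 3 tested was called, Spp1, which encodes osteopontin and is also made by macrophages. It was at 172 and 16.42 CPM in mouse 3, at 362.9 CPM and 0 UMIs in mouse 6, and at 21.41 and 14.19 CPM in mouse 9, and its log2 change was -3.04 ± 0.54. Stellate markers had 3 of 8 tested called lower. Tmsb4x, which encodes an actin-binding peptide abundant in most cells other than hepatocytes, was at 392.1 and 59.96 CPM, 291 and 97.72 CPM, and 156.7 and 54.66 CPM, with a log2 change of -2.03 ± 0.22. Cd55, an inhibitor of complement on cell surfaces, fell by 2.09.

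The same RNAs were found in livers without the mCherry gene. Over all qualifying barcodes, Lyz2 was at 34.85, 95.2 and 0 CPM in PBS mice 1, 4 and 7 and at 150.5, 25.49 and 110.8 CPM in AAVrh.10Null mice 2, 5 and 8. Ptprb was at 23.8, 40.13 and 12.67 CPM and at 57.06, 17.55 and 24.76 CPM in the same order. Mouse 7 had only 46 qualifying barcodes.

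**Figure D3:**
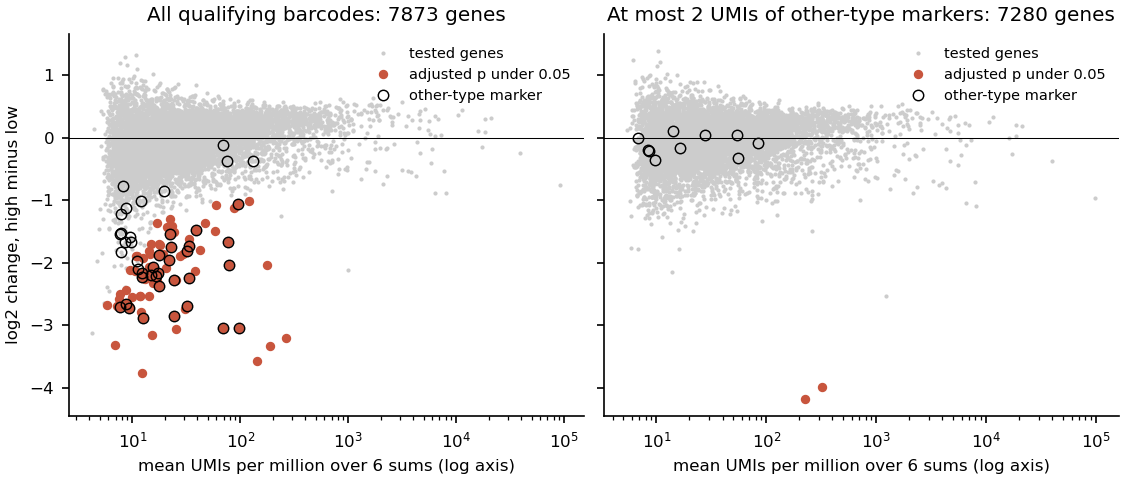
Log2 change of each tested gene, mCherry-high minus mCherry-low (y axis), against its mean level over the 6 sums (x axis, log scale), for all qualifying barcodes (left, 7873 genes) and for barcodes with at most 2 UMIs of other-type markers (right, 7280 genes). On the left 80 called genes (filled) lie below -1, many of them other-type markers (rings); on the right 2 genes are called.

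The barcodes behind these markers were looked at one type at a time, as a description chosen after the data were seen. Each barcode was counted under the other-type list of which it held the most UMIs, if these were at least 5. Barcodes so counted under the endothelial list numbered 43 in mouse 3, of which 30 were on the low and 1 on the high side, 34 in mouse 6 (17 and 3), and 94 in mouse 9 (38 and 11). Those under the Kupffer and macrophage list numbered 20 in mouse 3 (19 low and 0 high), 6 in mouse 6 (2 and 1) and 21 in mouse 9 (10 and 3). Those with T and NK markers numbered 15 (14 and 0), 12 (7 and 0) and 20 (7 and 3). More of them were on the low than on the high side in each of these sets. They still held mCherry: endothelial-marked barcodes were at 5497 CPM (4969 to 6066) in mouse 3 beside 8120 CPM (8043 to 8198) in barcodes with at most 2 other-type UMIs. In mouse 6 these values were 3301 CPM (2830 to 3828) and 5546 CPM (5427 to 5668), and in mouse 9 they were 1340 CPM (1158 to 1541) and 1832 CPM (1800 to 1864).

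In the same barcodes Alb was lower too. Endothelial-marked barcodes had 22710 CPM of Alb in mouse 3, 26310 CPM in mouse 6 and 26770 CPM in mouse 9, beside 35700, 39420 and 41310 CPM in barcodes with few such markers. Set against Alb, mCherry stood at 242.1 UMIs per 1000 Alb UMIs in endothelial-marked and 227.5 in few-marker barcodes of mouse 3, at 125.4 and 140.7 in mouse 6, and at 50.05 and 44.34 in mouse 9. For T and NK-marked barcodes the ratio was 205, 160.8 and 44.32, and for Kupffer-marked barcodes 184.2, 170.5 and 40.68 in mice 3, 6 and 9. The ratio was thus above that of few-marker barcodes in some sets and below it in others, while mCherry and Alb were each a smaller part of the UMIs in all 9. Transcription of mCherry in the other cell types, droplets with 2 cells, and hepatocyte RNA free in the suspension cannot be told apart here, since every qualifying barcode had to hold Alb.

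Red cell RNA differed between the sides mainly in mouse 6. The haemoglobin genes Hba-a1, Hba-a2 and Hbb-bt were called lower, with log2 changes of -3.21 ± 0.53, -3.33 ± 0.46 and -3.58 ± 0.44. Mouse 6 had 4687 haemoglobin UMIs in 14 low-side barcodes, 1 of them with 1327, and 156 on the high side. Mouse 9 had 593 on the low side, of which 516 were in 1 barcode, and 179 on the high side. Mouse 3 went the other way, with 60 on the low and 82 on the high side. Over steps 1 to 4 of mCherry share the summed red cell list was at 117.1, 687, 150.6 and 162 CPM in mouse 3, at 8676, 310.5, 319.9 and 421 CPM in mouse 6, and at 381.2, 831.2, 642.8 and 161.3 CPM in mouse 9. The low side was thus the highest step in mouse 6, and step 2 was the highest in mice 3 and 9. Hba-a1 and Hba-a2 are near-identical copies on chromosome 11, at 32283511 to 32284465 and 32296489 to 32297298 (mm10 coordinates, GENCODE vM21), so reads may be split between them.

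To look at hepatocytes with less of this RNA, barcodes with more than 2 other-type UMIs were left out and the sides were drawn again, an alternative chosen after seeing the data. It left 887 barcodes a side in mouse 3, 249 in mouse 6 and 1237 in mouse 9. Then 2 of 7280 genes were lower and 0 higher (edgeR; 0.0275% and 0%), and both were haemoglobin genes, Hba-a1 and Hba-a2, with log2 changes of -3.99 and -4.17 (adjusted p = 0.0424 and 0.01). Unadjusted, 134 genes were higher and 424 lower at p under 0.05. Of the 80 genes 24 could still be tested, with a median log2 change of -0.35. Tmsb4x stood at -0.01, Lyz2 at -0.35 and Ptprb at 0.11; the marker genes among these are kept low by the removal itself. The count of lower genes was 4 without mouse 3, 24 without mouse 6 and 81 without mouse 9. DESeq2 and a fit without pairing called 0, and limma-voom 1.

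Lists of hepatocyte genes are described next, on these few-marker barcodes unless stated. A fit of a straight line over all 4 steps of mCherry share was added to the comparison of the 2 ends, with changes given from step 1 to step 4. It called 22 genes higher and 131 lower of 8098 (edgeR; 0.272% and 1.62%). The same line over all qualifying barcodes called 230 higher and 364 lower of 8651 (2.66% and 4.21%). Its 12 sums come from 3 mice, so its p-values measure scatter around the line and not only the spread between animals. Among barcodes with at least 2000 UMIs, the comparison of the 2 ends called 53 genes higher and 204 lower of 2728 (edgeR; 1.94% and 7.48%), with 80, 36 and 102 barcodes a side in mice 3, 6 and 9. Leaving out mouse 9 moved the latter counts to 7 and 59.

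Pericentral genes lay mostly above 0. Of 37 on the list 33 were tested in the comparison of the ends over all qualifying barcodes, 29 lay above 0 and 0 were called, with a median log2 change of 0.39. The line over the same barcodes called 9 of 33 higher and 0 lower, beside 2.66% and 4.21% of all genes. Rgn (0.56) and Cyp2e1 (0.57) were among the 9. In few-marker barcodes the summed list was at 30660 and 33150 CPM on the low and high side of mouse 3, at 11960 and 25120 CPM in mouse 6 and at 31250 and 34070 CPM in mouse 9. Mouse 6 also differed most in mitochondrial share between its sides. In CPM of the non-mitochondrial UMIs, the list was at 18560 and 27790 in mouse 6, 32970 and 35210 in mouse 3, and 35100 and 37660 in mouse 9. The median over the list was 0.29 in few-marker barcodes. There the line over 4 steps called 2 of 33 higher, beside 0.272% of all genes. The 2 were Gstm1 (0.45), a glutathione transferase, and Nrn1 (0.39).

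In barcodes with at least 2000 UMIs 9 of 27 pericentral genes tested were called higher and 1 lower, beside 1.94% and 7.48% of all genes. The sides there also differed in mitochondrial RNA. Of its 10 tested transcripts 9 were called lower, with a median of -1.23 against -0.58 between the ends over all qualifying barcodes. The levels that follow have mitochondrial UMIs in their total. Rgn, whose product regucalcin binds calcium, was at 559.1 and 998.5 CPM on the low and high side of mouse 3, at 171.8 and 944.1 CPM in mouse 6, and at 659.5 and 1723 CPM in mouse 9. It was higher on the high side of each mouse, with a log2 change of 1.13 ± 0.17 (edgeR adjusted p = 2.4e-09), and passed without any one mouse. Rgn was chosen after its values were seen. Cyp2e1, which oxidises ethanol and small solvents, was at 1799 and 2481 CPM, 493 and 2926 CPM, and 2620 and 5190 CPM, a change of 0.93 ± 0.17 (adjusted p = 4.46e-06) that also held without each mouse. Glul, the glutamine synthetase of the cells next to the central vein, was at 69.89 and 158.2 CPM, 7.47 and 261.7 CPM, and 45.6 and 79.74 CPM. Its change of 1.36 ± 0.32 (adjusted p = 0.000725) lost its call without mouse 6 (0.88, adjusted p = 0.136). In mouse 6 the low side held 0 UMIs of Cyp1a2, a cytochrome P450 for caffeine and other aromatic compounds, whose fitted change was 0.93 ± 0.23. In the comparison of the ends over all qualifying barcodes none of these 4 passed: Cyp2e1 stood at 0.58 ± 0.25 (edgeR adjusted p = 0.437), Rgn at 0.62 ± 0.23, Glul at 0.46 ± 0.22 and Cyp1a2 at 0.45 ± 0.21. With at least 2000 UMIs and at most 2 other-type UMIs, 4 of 25 pericentral genes were called higher and 1 lower (0.691% and 7.55% of 2172 genes), Rgn (1.08), Cyp2e1 (0.79) and Glul (1.86) among them. In control livers Cyp2e1 ranged from 756.4 CPM (mouse 8, AAVrh.10Null) to 3602 CPM (mouse 1, PBS).

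Periportal genes lay more often below 0. The counts here leave out Alb, which is on the list but was used to choose the barcodes. In the comparison of the ends over all qualifying barcodes 32 of 33 were tested, with a median of -0.08, and 1 was called lower, Mfsd2a (-1.82 ± 0.41, adjusted p = 0.0459), a lysophospholipid transporter with 10 and 1, 25 and 4, and 30 and 13 UMIs on the low and high side of mice 3, 6 and 9. Cyp2f2, a periportal cytochrome P450, was at 1193 and 1306 CPM in mouse 3, 517.6 and 483.6 CPM in mouse 6 and 902.4 and 825.6 CPM in mouse 9, with a log2 change of -0.10 ± 0.20. Its sides did not separate. The line over 4 steps called 4 higher and 5 lower of 32 over all qualifying barcodes, beside 2.66% and 4.21% of all genes. In few-marker barcodes it called 0 higher and 5 lower of 31, beside 0.272% and 1.62%. The latter 5 were Pigr (-0.79), the receptor that carries IgA into bile, G6pc (-0.61), which releases glucose, Hsd17b13 (-0.46), a lipid droplet enzyme, Uroc1 (-0.45), of histidine breakdown, and Mfsd2a (-1.70). In the comparison of the ends over all qualifying barcodes Hal, the histidine-degrading enzyme, stood at -0.07 ± 0.18. Cps1, the first enzyme of the urea cycle, stood there at -0.19 ± 0.20. In barcodes with at least 2000 UMIs 13 of 28 were called lower and 0 higher, beside 7.48% and 1.94% of all genes. Their median was -0.59 against 0.00 for all genes. The genes called lower included Cyp2f2 (-0.78 ± 0.16), Cps1 (-0.78 ± 0.16) and Hal (-0.50 ± 0.17). The fall was not particular to periportal genes. There 16 of 25 coagulation, 12 of 23 complement and 9 of 24 acute phase genes were also called lower and 0 higher, with medians of -0.63, -0.63 and -0.37. With at most 2 other-type UMIs as well, 10 of 26 periportal genes were called lower, beside 7.55% of all genes. Without mouse 9 the count in barcodes with at least 2000 UMIs was 4, and Cyp2f2 and Cps1 lost their calls (adjusted p = 0.113 and 0.104).

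**Figure D4:**
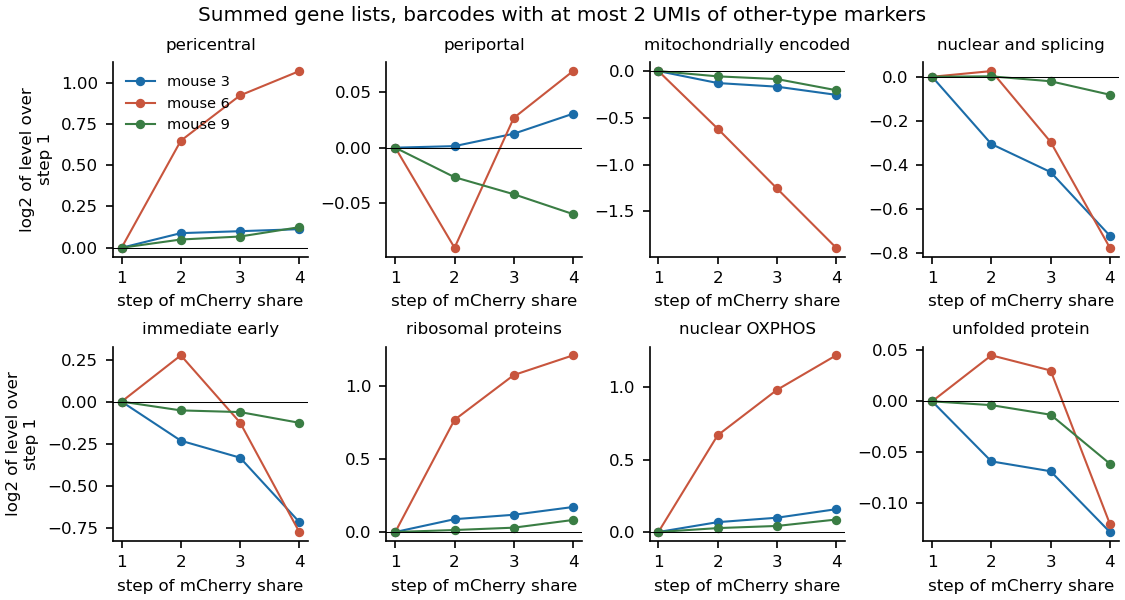
Summed level of 8 gene lists in few-marker barcodes at steps 1 (mCherry-low) to 4 (mCherry-high) of mCherry share (x axis), as log2 of the level over that of step 1 (y axis, scaled separately in each panel), for mice 3, 6 and 9. Mitochondrially encoded transcripts of mouse 6 go from 355800 to 96140 CPM, and immediate early RNAs go from 2551 to 1552 CPM in mouse 3 and from 2475 to 1445 CPM in mouse 6.

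Nuclear RNAs were lower on the mCherry-high side of each mouse. The list joins nuclear long RNAs with transcripts of splicing factors, many of which keep introns. In the comparison of the ends over all qualifying barcodes 33 of its 38 tested members lay below 0, with a median of -0.44, and 1 was called: Kcnq1ot1, a long RNA antisense to Kcnq1 (-1.12 ± 0.25, adjusted p = 0.0459). The line over the same barcodes called 16 of 38 lower and 0 higher, beside 4.21% and 2.66% of all genes. In few-marker barcodes the summed list was at 17400 and 10550 CPM on the low and high side of mouse 3, at 35540 and 20750 CPM in mouse 6, and at 14920 and 14100 CPM in mouse 9. Each high side was below its own low side, by little in mouse 9. In few-marker barcodes the comparison of the ends called 0 of 37. There the line over 4 steps called 12 of 38 lower and 0 higher, beside 1.62% and 0.272% of all genes. Neat1, the scaffold RNA of paraspeckles, chosen after its values were seen, had a slope of -1.46 ± 0.22 and Malat1 one of -1.02 ± 0.16 (edgeR adjusted p = 0.000332 and 0.000456). Without mouse 3 Malat1 was at -0.94 with an adjusted p of 0.0771, and without mouse 6 it was at -0.62 and passed.

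In CPM of the non-mitochondrial UMIs, Malat1 in few-marker barcodes was at 8480 and 3336 on the low and high side of mouse 3, at 28150 and 8074 in mouse 6, and at 6774 and 6467 in mouse 9. The high side held 0.3934 of the low side's level in mouse 3, 0.2868 in mouse 6 and 0.9546 in mouse 9. With the sides drawn within 5 bins of mitochondrial share, 5 of 37 members were called lower and 0 higher (0.262% and 0% of 7262 genes), Neat1, Malat1, Kcnq1ot1, Luc7l2 and Ccnl2, with log2 changes of -1.38, -1.21, -1.24, -0.98 and -1.04. In controls Malat1 ranged from 3029 CPM (mouse 4, PBS) to 35650 CPM (mouse 2, AAVrh.10Null).

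Mitochondrially encoded transcripts went the same way, most of all in mouse 6. In few-marker barcodes their sum was at 69990 and 58700 CPM on the low and high side of mouse 3, at 355800 and 96140 CPM in mouse 6, and at 109800 and 95310 CPM in mouse 9. All 14 tested members lay below 0, with a median of -0.74, and 0 passed in the comparison of the ends. The line over 4 steps called 9 of 16 lower there, beside 1.62% of all genes. Over all qualifying barcodes it called 9 of 16 lower, beside 4.21%. In barcodes with at least 2000 UMIs the comparison of the ends called 9 of 10 lower, with a median of -1.23, beside 7.48%. The ribosomal RNA mt-Rnr2 was at 47280 and 39810 CPM, 266500 and 83860 CPM, and 62400 and 55530 CPM over all qualifying barcodes, and mt-Co1, a subunit of cytochrome oxidase, at 1617 and 1442, 3607 and 1473, and 2903 and 2588 CPM. Their log2 changes were -0.76 ± 0.35 and -0.61 ± 0.27 and did not pass in the comparison of the ends (edgeR adjusted p = 0.464 and 0.458), while the line over these barcodes called both (-0.74 and -0.55). A high mitochondrial share is used as a sign of damaged cells in droplet data. Few-marker sides drawn within bins of this share gave 19 lower and 0 higher genes of 7262. Cell damage as a source of the other differences was not tested.

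Immediate early genes, which cells switch on within minutes of a stimulus such as dissociation, were lower on the mCherry-high side of each mouse, least in mouse 9. In the comparison of the ends over all qualifying barcodes 17 of 19 tested lay below 0, with a median of -0.43, and Klf6 was called (-1.30 ± 0.29, adjusted p = 0.0459). The line over the same barcodes called 9 of 23 lower and 0 higher, beside 4.21% and 2.66% of all genes. The summed list in few-marker barcodes was at 2551 and 1552 CPM in mouse 3, 2475 and 1445 CPM in mouse 6, and 2557 and 2343 CPM in mouse 9. There the line over 4 steps called 5 of 20 lower and 0 higher, beside 1.62% and 0.272% of all genes. The 5 were Fos (-0.84), Egr1 (-0.77) and Jun (-0.84), transcription factors, Btg2 (-0.89), an antiproliferative gene, and Atf3 (-1.10), a stress factor. Within bins of mitochondrial share Btg2, Egr1, Fos and Jun were called as well. Without mouse 3 the line called 0 of 17. Fos and Egr1 were chosen after their values were seen.

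**Figure D5:**
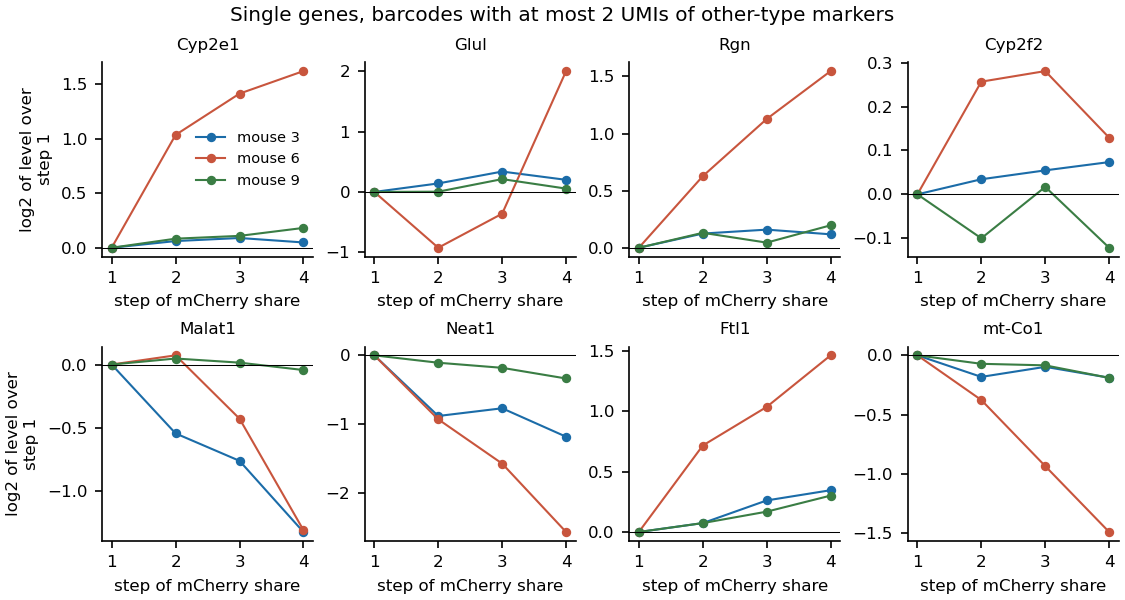
Level of 8 single genes in few-marker barcodes at steps 1 (mCherry-low) to 4 (mCherry-high) of mCherry share (x axis), as log2 of the level over that of step 1 (y axis, scaled separately in each panel), for mice 3, 6 and 9. Malat1 and Neat1 go down in mice 3 and 6 and little in mouse 9, Ftl1 goes up in all 3, and Cyp2e1 and Rgn move by more than 1 unit in mouse 6 alone.

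Genes of protein synthesis and respiration lay slightly above 0, most of all in mouse 6, which also differed most in mitochondrial share. Over all qualifying barcodes, the summed level of the high side over the low side was 1.058, 1.828 and 1.032 in mice 3, 6 and 9 for ribosomal protein genes. For nuclear oxidative phosphorylation genes it was 1.13, 2.094 and 1.066, and for proteasome genes 1.056, 2.188 and 1.095. In CPM of the non-mitochondrial UMIs of the same barcodes the values of mouse 6 were 1.398, 1.602 and 1.674. In the comparison of the ends over all qualifying barcodes, of 82 ribosomal protein genes tested 76 lay above 0 (median 0.25), of 79 nuclear genes of oxidative phosphorylation 78 did (median 0.34) and of 37 proteasome genes 34 did (median 0.29), with 0 called in each. Without mouse 6 these medians were 0.12, 0.19 and 0.15. The line over the same barcodes called 5 of 82, 29 of 79 and 8 of 37 of them higher and 0 lower, beside 2.66% of all genes. In few-marker barcodes it called 1 of 82, 2 of 79 and 0 of 37 higher, beside 0.272%. Rps2, a ribosomal protein gene, was at 794.3 and 875.1 CPM in mouse 3, 561.8 and 1220 CPM in mouse 6 and 785.4 and 867.2 CPM in mouse 9, with a log2 change of 0.37 ± 0.20. Ndufa4, of the respiratory chain, had 0.41 ± 0.20, and Psma7, of the proteasome, 0.39 ± 0.19. Among antioxidant genes, Ftl1, the ferritin light chain that stores iron, had the smallest p on the list under the line in few-marker barcodes (0.51 ± 0.10, edgeR adjusted p = 0.00453), which called 2 of 28 higher and 1 lower. Over all qualifying barcodes the line called 10 of 28 higher and 0 lower, Ftl1 at 0.54 ± 0.10 (edgeR adjusted p = 0.000648). Its levels over all qualifying barcodes were 666.5 and 835.1 CPM, 948.6 and 2305 CPM, and 887.3 and 1088 CPM, higher on the high side of each mouse, and the comparison of the ends gave 0.54 ± 0.20 with an adjusted p of 0.345; it was chosen after its values were seen. Gpx1, a glutathione peroxidase, stood at 0.43 ± 0.22 between the ends without passing.

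The genes with the smallest p among those higher on the mCherry-high side did not pass in the comparison of the ends. They were Stoml2 (0.72 ± 0.20) and Prelid3b (0.84 ± 0.23), of mitochondrial lipid handling, Mcee (0.60 ± 0.18), of propionate breakdown, Mrpl30 (0.57 ± 0.17), of the mitochondrial ribosome, Churc1 (0.67 ± 0.21) and Kpna2 (1.32 ± 0.41), a nuclear import factor, with edgeR adjusted p from 0.128 to 0.227. Stoml2 was at 54.87 and 74.23 CPM in mouse 3, 18.42 and 45.1 CPM in mouse 6 and 35.51 and 64.64 CPM in mouse 9. Each high side was above its low side. The line over all qualifying barcodes called 5 of these 6 higher, all but Kpna2, with edgeR adjusted p from 0.00284 to 0.0158. In few-marker barcodes it called Prelid3b (0.70), Mcee (0.49) and Mrpl30 (0.48) higher.

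Genes through which AAV enters and travels in cells were measured too. Of 41 on the list 35 were tested in the comparison of the ends over all qualifying barcodes, 18 lay above and 17 below 0, with a median of 0.01, and 0 were called. The line over all qualifying barcodes called 1 of 36, Rab4a, a small GTPase of early endosomes, higher (0.69), near the 2.66% of all genes. In barcodes with at least 2000 UMIs 2 of 14 were called lower, the lysosomal proteases Ctsb (-1.12 ± 0.20) and Ctsl (-0.81 ± 0.18), and both were called again with at most 2 other-type UMIs (-1.07 and -0.97). Of all genes, 7.48% and 7.55% were called lower under these 2 settings. AU040320, the mouse gene of the AAV receptor, was at 14.72 and 4.996 CPM in mouse 3, 11.05 and 7.517 CPM in mouse 6 and 9.4 and 10.51 CPM in mouse 9, a change of -0.56 ± 0.41 (edgeR adjusted p = 0.598). It rested on 22 and 7, 6 and 3, and 18 and 20 UMIs. Of 12 genes of nucleic acid sensing tested over all qualifying barcodes 0 were called between the ends (median -0.02). The line over the same barcodes called 1 of 14, Unc93b1, lower, beside 4.21% of all genes. Among 26 tested type I interferon genes 1 was called lower, Ifi203 (-1.89 ± 0.43), an interferon-inducible gene expressed in immune cells, and the median of -0.27 became -0.07 in few-marker barcodes, where 0 of 22 were called. The line called 2 of 30 lower over all qualifying barcodes and 0 of 27 in few-marker barcodes. Over all qualifying barcodes the ends called 1.02% of all genes lower and the line 4.21%. Isg15, a ubiquitin-like interferon product, stood at -0.07 ± 0.39, and Cdkn1a, a p53 target that stops the cell cycle, at -0.13 ± 0.34.

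Over all qualifying barcodes, 23 of 29 tested genes of the unfolded protein response lay below 0 between the ends and 0 were called. The line over the same barcodes called 1 higher and 3 lower of 30, beside 2.66% and 4.21% of all genes. The response's main chaperone gene Hspa5 was at 922.8 and 739.5 CPM, 1520 and 882 CPM, and 984.9 and 844 CPM, at -0.52 ± 0.22 between the ends without passing and at -0.47 under the line, which called it. It was also called in barcodes with at least 2000 UMIs (-1.07 ± 0.16, adjusted p = 7.22e-09), also without each mouse. There 8 of 22 members were called lower and 0 higher, beside 7.48% and 1.94% of all genes.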

How the data were processed

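Drop-seq libraries of 9 livers, 1 library a mouse, were sequenced on a HiSeq 2500. Groups follow the treatment named in the labels. Each deposited table gives, as a whole number, the UMI count of a gene in a barcode. The submitters' processing notes name mm10 and Seurat; aligner, counting tool, strand setting and the choice of barcodes are not stated in the labels. The members and gene lists were chosen with earlier results of these data known.

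Qualifying barcodes (at least 1000 UMIs and 10 Alb UMIs) were ordered within a mouse by mCherry over all UMIs. UMIs of the bottom and top 25% were summed, mCherry left out, giving 6 sums of 399091 to 1914893 UMIs. In R 4.3.3, edgeR 4.0.16 was run with filterByExpr, TMM normalization and quasi-likelihood tests, the mouse as block and side as the tested term, with a Benjamini-Hochberg threshold of 0.05. The scatter left after the mouse block, as edgeR's biological coefficient of variation, was 0.141. Pairing comes from the design, since both sides are barcodes of 1 animal. CPM are counts-per-million of the UMIs of the sum without mCherry, except for mCherry, and for the Malat1, Alb and marker-rich barcode levels given with the description of the sides, where mCherry is in the total; they carry no TMM factor, while log2 changes do. A permutation of sides over 3 pairs cannot go below p = 0.25, so no single value was tested that way. DESeq2 1.42.0, limma 3.58.1 and 25 alternatives in all were run, and 16 more were chosen after seeing the data, all of them on barcodes with at most 2 UMIs of other-type markers or leaving out a mouse. The fit was tested on simulated counts. Plots used matplotlib 3.10.9 under Python 3.11.15.

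Named genes were the 15 largest changes per direction among genes past the threshold with 1 sign in 3 mice and a mean of at least 20 CPM, the genes with the smallest p up to 6 where fewer passed, up to 4 called members per list or 2 with the highest level, and a set listed by name; the text describes those that its groups need. Genes named only for a call under the line or in barcodes with at least 2000 UMIs were chosen after their values were seen. Positions are from GENCODE vM21. One gene named by this rule is not reported here.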

Additional observations from a re-analysis of the deposited data

How the results depend on the processing

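The 80 lower and 0 higher genes depended on how the sides were drawn and tested; the cause of each shift was not tested beyond what the setting itself changes. With fewer barcodes or genes the count of lower genes was 18 with smaller sides, 4 with at least 30 Alb UMIs, 1 after thinning to 1000 UMIs and 3 among genes with 50 UMIs in 3 sums. It was 27 with DESeq2. It was 135 lower with larger sides, 183 lower and 4 higher with all barcodes split evenly between the sides, 179 lower and 4 higher with at least 500 UMIs, 192 and 3 with no low-count filter, and 137 and 1 within bins of mitochondrial share. The line over 4 steps gave 364 lower and 230 higher, and at least 2000 UMIs gave 204 and 53. Without barcodes holding any other-type marker UMI 0 were called (302 genes at an unadjusted p under 0.05). Dropping the replicate block, which pairs the sides of a mouse, gave 0 calls (edgeR; 368 at an unadjusted p under 0.05). Leaving out a mouse gave 2 to 68 lower. The other settings, limma-voom, both other scalings, no Alb minimum, a 20% mitochondrial limit, mCherry over non-mitochondrial UMIs, bins of depth and no barcodes ending in N, gave 54 to 120 lower and 0 higher.

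Chosen after seeing the data, the limit of 2 other-type UMIs gave 2 lower, or 0 with DESeq2, 1 with limma-voom and 0 without the replicate block. With it, bins of mitochondrial share gave 19 lower, at least 2000 UMIs gave 164 lower and 15 higher, and the line gave 131 and 22. Leaving out a mouse gave 4 to 81 lower and 0 to 1 higher (24 lower without mouse 6) with the limit alone, and 25 to 320 lower and 0 to 54 higher with the line (43 higher without mouse 6). With at least 2000 UMIs it gave 59 to 148 lower and 7 to 34 higher (31 higher without mouse 6).

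Under the limit of 2 other-type UMIs some log2 changes turned positive. Of the genes below, Ptprb, Lyz2 and Spp1 are on the other-type lists, so the limit itself keeps them low on both sides. The log2 change of Ptprb was at 0.11, and at 0.066 with the line, 0.38 in mitochondrial bins, 0.19 with DESeq2, 0.089 with limma-voom, 0.15 without the replicate block, and 0.10 and 0.53 without mice 6 and 9. Similarly, the log2 change of Tmsb4x was at 0.029 in mitochondrial bins, 0.027 without the block and 0.25 without mouse 9, and at 0.15 with no other-type UMI. The log2 change of Lyz2 was at 0.39 without mouse 9, Mrc1 at 0.29 without mouse 6, Cd74 at 0.12 with the line and 0.19 without mouse 6, and Spp1 at 0.35 with the line and 0.38 and 0.23 without mice 6 and 9.

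Genes near 0 changed sign too. That is, the log2 change of Cyp2f2 ranged from -0.30 (without mouse 3) to 0.069 (without mouse 6) when a mouse was left out, and was at 0.028 with the even split, 0.072 with at least 500 UMIs, 0.065 after thinning and 0.026 in mitochondrial bins. The log2 change of Hal was at 0.00644 with library sizes alone, 0.11 under the mitochondrial limit, 0.000399 with mCherry over non-mitochondrial UMIs and 0.034 in mitochondrial bins. When a mouse was left out, the log2 change of Cps1 ranged from -0.34 without mouse 3 to 0.014 without mouse 6. In contrast to its main value, the log2 change of mt-Co1 was at 0.11 in mitochondrial bins and 0.046 with the limit of 2 as well. Its UMIs are part of the share that set these bins, so the setting itself holds this change near 0. The log2 change of Isg15 was at 0.23 with DESeq2, -0.27 to 0.29 when a mouse was left out (0.023 without mouse 3), 0.045 and 0.083 with larger sides and the even split, and 0.00761 with at least 30 Alb UMIs. With the limit of 2 it was at 0.14, and at 0.16 with the line, 0.071 in mitochondrial bins, 0.41 with DESeq2, 0.11 with limma-voom, 0.18 without the block and 0.12 without mouse 3. The log2 change of Cdkn1a was at 0.017 without the block, -1.35 to 0.19 when a mouse was left out (0.12 without mouse 6), 0.072 with the even split, 0.052 with the line and 0.058 with at least 30 Alb UMIs. With the limit of 2 it was at 0.15, and at 0.32 with the line, 0.22 in mitochondrial bins, 0.16 with limma-voom, 0.29 without the block, and 0.26 and 0.51 without mice 6 and 9. Over the 53 genes with alternatives computed, 1234 values kept direction and side of the threshold, 164 lost their call, 124 gained one and 57 changed sign. These counts do not set apart values that a setting moves by its own rule, as with mt-Co1 in mitochondrial bins.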
